A study of Mus musculus with 2 samples.

Results

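The 3p arms of the mouse miRNAs numbered miR-6890 to miR-7099 were examined in the epididymal adipose tissue of mice, a visceral fat depot. Members were all probes named for a 3p arm with a number in that range, a letter suffix allowed. The rule itself used no measured value, though it was set with earlier results of these data known. The rule took 201 of the 1888 probes that carry a single miRNA name. One array came from male C57BL/6J mice fed a normal diet with 5% fat, and the other from male C57BL/6J mice on a high-fat diet (60% of calories from fat). Per the labels, feeding began at 8 weeks of age and lasted 8 weeks in both groups. How many mice stand behind an array is left unsaid in the labels, and the extraction protocol speaks of cells where the sample is tissue. With 1 array per diet, no test across animals and no standard error could be made, and the arrays lay at positions 1 and 2 of a slide, so diet and position cannot be told apart.

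A miRNA is cut from a hairpin RNA, and its 5p and 3p arms are the strands that the enzyme Dicer releases from either side of that hairpin. Many miRNAs with late numbers were annotated as mirtrons. A mirtron is a short intron that is spliced out and debranched and then folds into a hairpin, so it needs no cut by Drosha, the enzyme that frees the hairpins of most other miRNAs. Its 3p arm is the end of the intron: it holds the pyrimidine-rich stretch before the splice acceptor and closes with the AG that all common introns carry. Such miRNAs are as a rule scarce, and most are seen mainly in deep sequencing of small RNA.

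RefSeq held a mature sequence on the build GRCm38.p6 for 177 of the 201 3p arms, and most of these carried the marks of an intron's end. Of the 177, 138 ended in AG (78%) and 120 in CAG (67.8%), against 58 of 490 other 3p arms in the same table (11.8%) and 29 of 490 (5.92%). The 3p arm reached the last base of the annotated hairpin in 128 of 177 (72.3%), against 115 of 490 others (23.5%). Of the 174 hairpins, 164 ended in AG (94.3%), against 69 of 823 other hairpins (8.38%). The median pyrimidine content was 72.2%, with 40.9% C and 31.8% U, whereas the other 3p arms had 54.5% pyrimidine and 26.2% C. The 5p arms of the same numbers were of the opposite make-up, with 43.7% G and 31.8% pyrimidine. All but 1 of the 177 lay within the span of a protein-coding gene (99.4%, against 59.4% of the other 3p arms). The strand of that gene could be read for 153 of them, and it was the miRNA's own strand in all 153. For the other 3p arms the strand was the same for 217 and opposite for 28. The table gives gene spans, not exons, so intron and exon positions were not read. The 177 were spread over 19 chromosomes, with 17 each on chromosomes 7 and 11 and 16 each on chromosomes 5 and 8. These counts describe the annotation, not the arrays.

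Shown first are the 6 brightest of the 3p arms, since they carried the largest share of the signal. In each, capitals mark the seed, which is bases 2 to 8 and sets most of the pairing with a target, and a closing AG where there is one.
miR-7000-3p: cACCCACCugccuguccuccAG
miR-7052-3p: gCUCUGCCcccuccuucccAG
miR-7045-3p: uCUCCCCCcucccccgcacAG
miR-7056-3p: cCUCACCUgucucccaccacAG
miR-7082-3p: gCCCCCCUugcugucugucucc
miR-7028-3p: cCUUCUCUucccccucggccAG
They lie at chr2:92387384-92387405 on the minus strand within the span of Mapk8ip1, at chr7:44470391-44470411 on the plus strand within Josd2, at chr6:125097066-125097086 on the plus strand within Chd4, at chr7:47083166-47083187 on the minus strand within Ptpn5, at chr9:21075499-21075520 on the minus strand within Raver1 and at chr5:114719557-114719578 on the plus strand within Tchp. All 6 are rich in C, from 50% in miR-7082-3p to 66.7% in miR-7045-3p, and miR-7082-3p is the one that does not close with AG.

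The contrast is with the 6 dimmest of those with a sequence, which were not detected on either array.
miR-6992-3p: uCUCACUGaugaucauuugcAG
miR-7061-3p: uAUCCCUUuuauuuccuuuuAG
miR-6905-3p: aAAUAACCuuaucugcccgau
miR-7065-3p: uUGGUUUUccuguuugcacAG
miR-7078-3p: uACUUUUUuuaucauccacAG
miR-7090-3p: uUUGAUGUcugacuuugcAG
Of these, 5 also close with AG, but C made up only 15% to 28.6% of them, and in miR-7061-3p U made up 59.1%.

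The layout of the annotated hairpin can be seen in full for 3 members, with both arms in capitals, the 5p arm first.
Mir7000: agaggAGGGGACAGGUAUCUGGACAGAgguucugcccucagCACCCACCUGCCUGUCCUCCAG
Mir7052: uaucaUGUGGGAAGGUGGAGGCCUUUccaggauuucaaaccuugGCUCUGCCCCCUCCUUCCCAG
Mir7043: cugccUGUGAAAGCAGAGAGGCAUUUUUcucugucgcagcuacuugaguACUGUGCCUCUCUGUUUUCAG
They are 63, 65 and 70 bases long. In each the 3p arm runs to the last base, and a purine-rich 5p arm faces a pyrimidine-rich 3p arm. Mir7000 and Mir7052 hold the brightest 3p arms, and Mir7043 the one with the highest deposited ratio between diets, over a normal-diet signal below the median of the spots named No Probe.

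Most of these 3p arms gave a dim signal. Net signal is the median intensity of a spot minus the trimmed mean of the blank spots of its array, and a miRNA counted as detected above the blank mean plus 2 SD, which put the limit at a net signal of 1.87 (normal diet) or 1.59 (high-fat diet). On normal diet 163 of 201 were detected (81.1%) and on high-fat diet 171 (85.1%), against 72% and 79.4% of all 1888 singly named miRNAs. Both arrays detected 162 (80.6%, against 70.4% of all), and 29 were detected on neither. Only 10 were detected on 1 array alone (4.98%, against 10.5% of all). The 200 5p arms of the same numbers were like them in this, with 88.5% detected on both arrays and 4.5% on 1 alone. The median net signal over the 201 was 7.66 on normal diet, with quartiles at 3.41 and 13.7, and 9.99 on high-fat diet, with quartiles at 4.66 and 16.3. The medians of all miRNAs were close to these, at 6.91 and 10.7. The upper end was different: the 90th percentile of the 3p arms was 23.8 and 28.2, against 125.3 and 143 for all miRNAs. The 201 made up 10.6% of the probes but 1.27% of the summed net signal on normal diet and 1.5% on high-fat diet.

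The detection limit is low for signals of this size. The array has 174 spots named No Probe, and 156 of them on normal diet (89.7%) and 164 on high-fat diet (94.3%) also lay above the limit. Their median net signal was 3.70 and 3.52. The files do not say what these spots hold. Of 32 negative control spots, 19 and 16 passed, whereas 6.03% and 5.36% of the 896 blank spots did. Above the 95th percentile of the No Probe spots, at 7.33 and 6.93, lay 107 of the 201 on normal diet (53.2%) and 127 on high-fat diet (63.2%), with 102 on both arrays (50.7%, against 48% of all miRNAs). For the other 99, a level apart from that of spots named No Probe was thus not shown on both arrays.

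**Figure D1:**
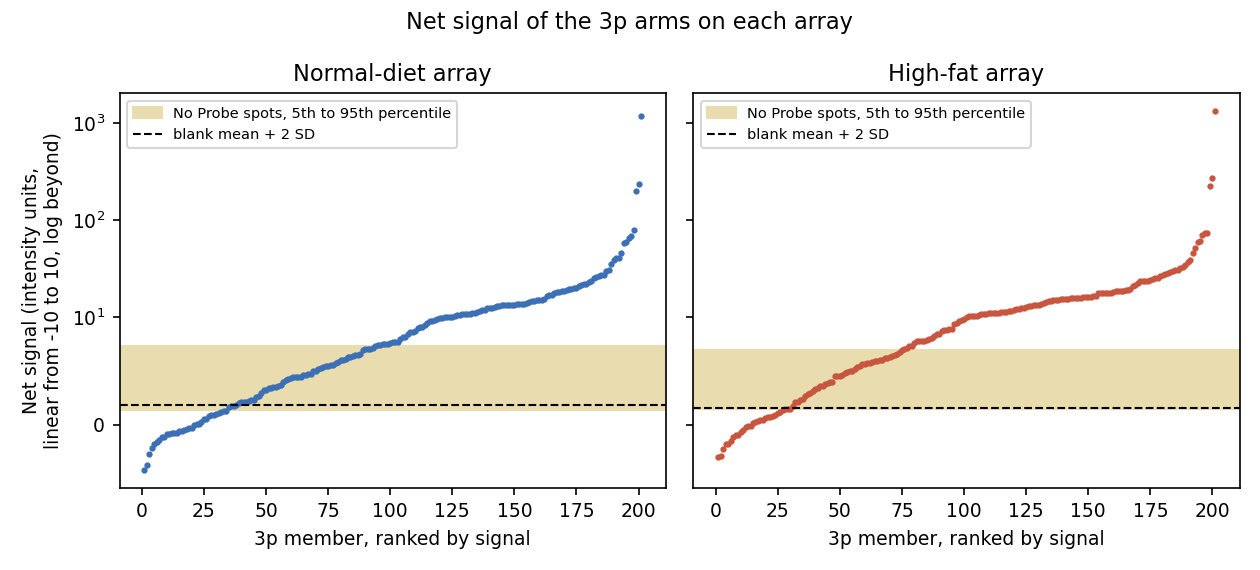
Net signal (vertical axis, intensity units, linear near 0 and logarithmic beyond) of the 201 3p arms, ranked from dim to bright along the horizontal axis, on each array. Points are single spots, the dashed line is the detection limit and the band holds the 5th to 95th percentile of the No Probe spots. Most points lie below 20 on both arrays, and miR-7000-3p stands alone at the upper right of each panel.

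A single miRNA held more of the summed signal than any other. miR-7000-3p, from a hairpin within the span of the signalling scaffold gene Mapk8ip1, gave 1194 under normal and 1328 under high-fat diet, or 31.7% and 30.7% of the sum over the 3p arms. miR-7052-3p followed with 239.5 and 271.8, and miR-7045-3p, within the gene of the chromatin remodeller Chd4, with 200.2 and 224.9. These were the only members above 100 on either array. In all 3 the high-fat array was slightly the brighter before scaling. So it was for 70.6% of all miRNAs detected on both arrays. After quantile normalisation, described below, the log2 differences of high-fat minus normal diet were 0.46, -0.02 and 0.03. In the authors' deposited values, scaled by 1 factor per array, they were -0.10, -0.07 and -0.09.

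The next 7 lay between 39.4 and 79.4. miR-7056-3p was at 79.4 with normal diet and 74.5 with high-fat diet. miR-7082-3p was at 68.9 and 73.2. miR-7028-3p, from within Tchp, a gene of a keratin-binding protein, was at 58.6 and 70.4. miR-7033-3p, within the span of the nuclear pore gene Pom121, was at 66.3 and 61.5. miR-6917-3p, within that of the receptor gene Erbb3, was at 60.1 and 59.9. miR-7022-3p, within Fbxo6, was at 46.3 and 52.3, and miR-6897-3p, within Uggt1, a gene of glycoprotein quality control, at 39.4 and 46. Of the 7, miR-7056-3p, miR-7033-3p and miR-6917-3p were dimmer on the high-fat array before scaling. After quantile normalisation, and in the authors' deposited values too, only miR-7028-3p of the 7 had a log2 difference above 0, at 0.01. Where 0 lies turns on the scaling. The cytosine content of the 7 ran from 33.3% in miR-7033-3p to 54.5% in miR-7056-3p and miR-7028-3p. Levels of different probes are set side by side here as signals, not as amounts of RNA.

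Signal was higher in miRNAs with more cytosine. Over the 177 with a sequence, the rank correlation of C content with net signal was 0.61 on normal diet and 0.60 on high-fat diet, and that of U content was -0.44 and -0.40. Both arrays share the probes, so the values are not independent. In the group with least C (12.5% to 36.4%), 37 of 62 were detected on both arrays (59.7%), with median net signals of 3.04 and 4.55. In the middle group (36.8% to 45%) 52 of 59 were (88.1%), at 7.66 and 10.4. In the group with most C (45.5% to 66.7%) all 56 were, at 14.3 and 17. The same correlation was 0.21 and 0.11 over 385 3p arms with lower numbers, and 0.09 and 0.06 over 176 5p arms of the same numbers, where G content had 0.52 and 0.54 instead. For G and C together it was 0.55 and 0.51 for the 3p arms described here, 0.59 and 0.58 for those 5p arms and 0.36 and 0.26 for the lower-numbered 3p arms, so a link of signal with base content was seen in all 3 sets. The difference between these correlations was not tested, and the part of probe chemistry in the signal was not tested. By the closing AG itself the signal differed little: 114 of 138 that end in AG were detected on both arrays (82.6%), and 31 of 39 that do not (79.5%), with median net signals of 7.67 and 7.17 on normal diet and 10.4 and 9.49 on high-fat diet.

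**Figure D2:**
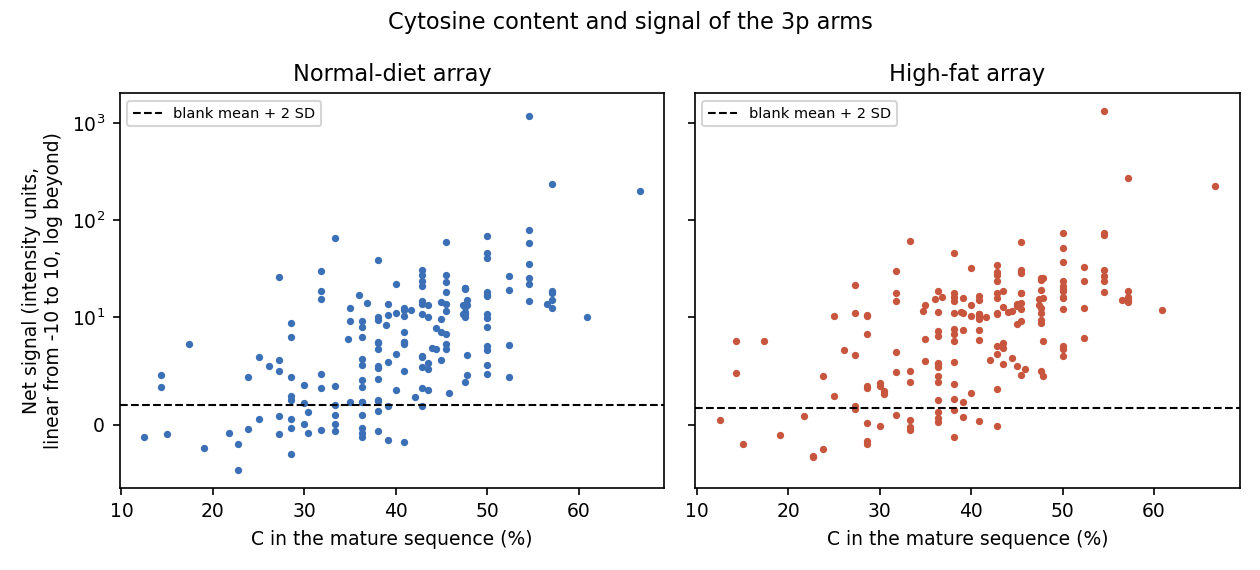
Share of C in the mature sequence (horizontal axis, percent) against net signal (vertical axis, intensity units, linear near 0 and logarithmic beyond) for the 177 3p arms with a sequence, on each array. Each point is 1 miRNA and the dashed line is the detection limit. Every point at 45.5% C or more lies above the line on both arrays.

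The 3p arm was mostly the dimmer arm of its hairpin. The probes of the arms differ in sequence, so a brighter arm is a brighter spot and not shown to be more RNA. Both arms had a probe for 200 hairpins, and the 3p arm was the brighter in 50 of them on normal diet (25%, 95% Wilson interval 19.5% to 31.4%, for counting error only) and in 43 on high-fat diet (21.5%, 16.4% to 27.7%). The same arm was brighter on both arrays in 187 of 200, and it was the 3p arm in 40 of these. The median net signal of the 5p arms was 23.4 and 30.3. The arms went together only weakly, with a rank correlation of 0.28 on normal diet and 0.29 on high-fat diet across hairpins. Of the 29 hairpins whose 3p arm was undetected on both arrays, 22 had a 5p arm detected on both. The reverse was seen in 8 hairpins, and in 6 no arm was detected on either array.

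miR-7000 was the hairpin with the widest gap toward the 3p arm: its 5p arm was at 7.26 (normal diet) and 11.9 (high-fat diet), against 1194 and 1328 for the 3p arm. miR-7052-5p was at 75.1 and 103.8 and miR-7022-5p at 13.4 and 20.3, both below their 3p arms. miR-7033-5p lay the other way, at 149.6 and 423.2. miR-7045-5p and miR-7045-3p were nearly equal on normal diet, at 206.4 and 200.2, while on high-fat diet the 5p arm was at 413 and the 3p arm at 224.9.

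**Figure D3:**
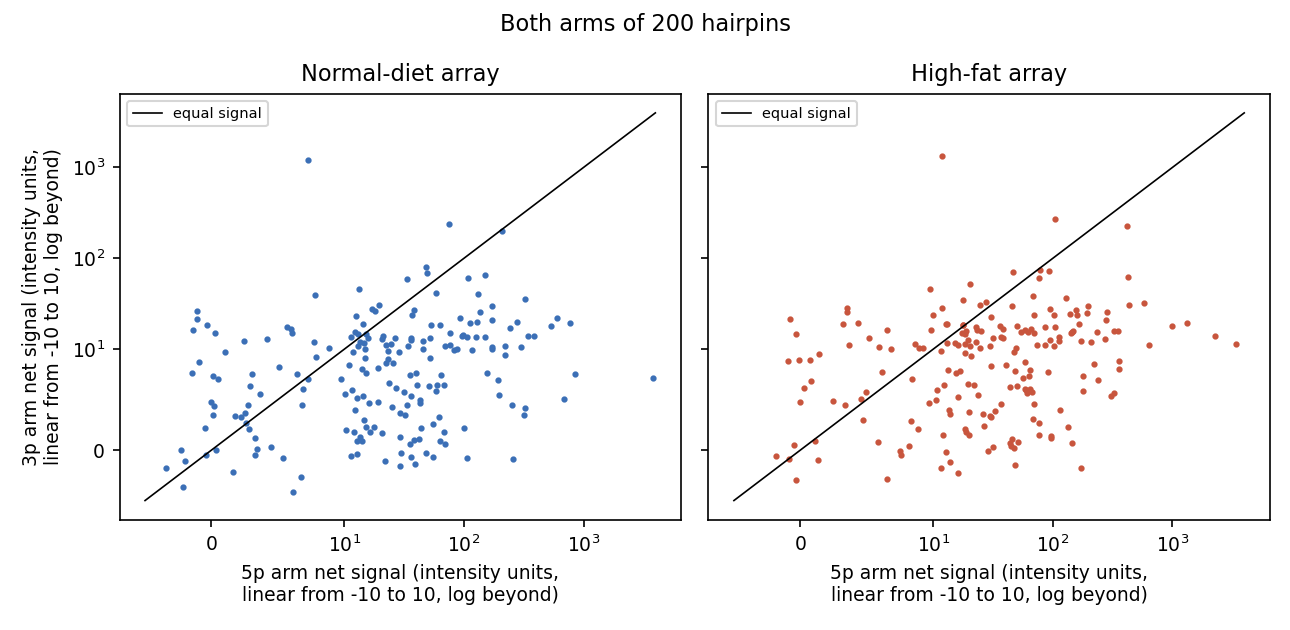
Net signal of the 5p arm (horizontal axis) and the 3p arm (vertical axis) of 200 hairpins on each array, both in intensity units, linear near 0 and logarithmic beyond. Each point is 1 hairpin and the line marks equal signal. Above the line lie 50 points in the normal-diet panel and 43 in the high-fat panel, among them miR-7000 at the top left.

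The design asks how miRNA levels in this fat pad differ between the diets. Among the 3p arms the differences were small. Over the 162 detected on both arrays, net signals on the arrays had a rank correlation of 0.90 across miRNAs, and 123 were higher on the high-fat array (75.9%, against 70.6% of all miRNAs), before any scaling. After background correction with an offset of 50 and quantile normalisation, the log2 difference of high-fat minus normal diet had a median of -0.04 and ran from -0.24 to 0.46; the median of the 1330 singly named miRNAs that passed on both arrays was also -0.04. Of the 162, 35 were above 0 (21.6%, against 34.9% of all). None was 2-fold higher or lower. The share past 2-fold among those 1330 was 1.28% for higher and 0.752% for lower, so a count of 0 among 162 is near the background.

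That scale could hardly have shown a 2-fold fall. The lowest normalised value is 50.2, and only 12 of the 201 had a normal-diet value at least 2 times as high. The authors' deposited values, which are net signals multiplied by 1 factor per array and so keep the ratios of dim probes, gave these 162 a median log2 difference of 0.02 (all miRNAs 0.00436), with 85 above 0 (52.5%, all miRNAs 50.2%). In these values 5 passed 2-fold upward and 2 downward. The background was 7.22% higher and 4.66% lower among all 1330, and the 3p arms stood below it in both directions. So did the 5p arms of the same numbers, with 8 of 177 upward and 3 downward. With plain subtraction of the background in place of the offset, 1 passed upward and 8 downward, against a background of 4.59% and 7.97%.

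**Figure D4:**
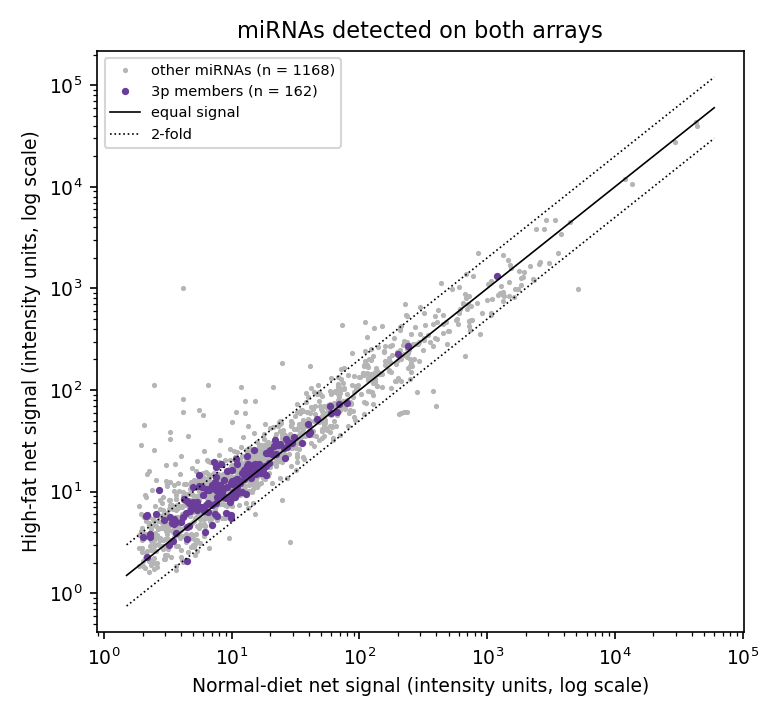
Net signal on the normal-diet array (horizontal axis) and the high-fat array (vertical axis), in intensity units on log scales, for 162 3p arms and 1168 other singly named miRNAs detected on both arrays. Each point is 1 miRNA, the solid line marks equal signal and the dotted lines a 2-fold difference before scaling. The 3p arms gather at the dim end along the line, and the far outliers belong to other miRNAs.

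The spread of the differences was narrow in each class of brightness from a net signal of 10 up. The SD of the log2 difference was 0.08 over the 162, against 0.34 over the 1168 other miRNAs, which are brighter on the whole. The 5p arms of the same numbers, which are among the 1168, had an SD of 0.25 over 177. At a mean net signal from 10 to 20 the SD was 0.08 for 56 of the 3p arms and 0.13 for 259 others. From 20 to 50 it was 0.08 for 24 and 0.26 for 201. At 50 and above it was 0.22 for 8, with miR-7000-3p among them, and 0.59 for 334. In the authors' deposited values the SDs of these classes were 0.41 against 0.72, 0.24 against 0.85 and 0.14 against 0.92. Below a mean net signal of 5 they were nearly equal, at 0.60 for 22 and 0.64 for 166. Over all classes the deposited values had an SD of 0.46 for the 162 and 0.80 for the 1168. It was 0.48 for the 177 5p arms, so on that scale the narrow spread was not particular to the 3p arms. These SDs are over miRNAs, not replicates, and their difference was not tested. For scale, log2 differences of repeated control spots varied between the arrays with an SD of 0.10 to 0.18 over 8 spots each, which covers spot error only. For the 896 blank spots, whose net signal lies around 0, the SD was 0.04. The offset shrinks differences of dim spots, so neither value is the spot error of a 3p arm.

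**Figure D5:**
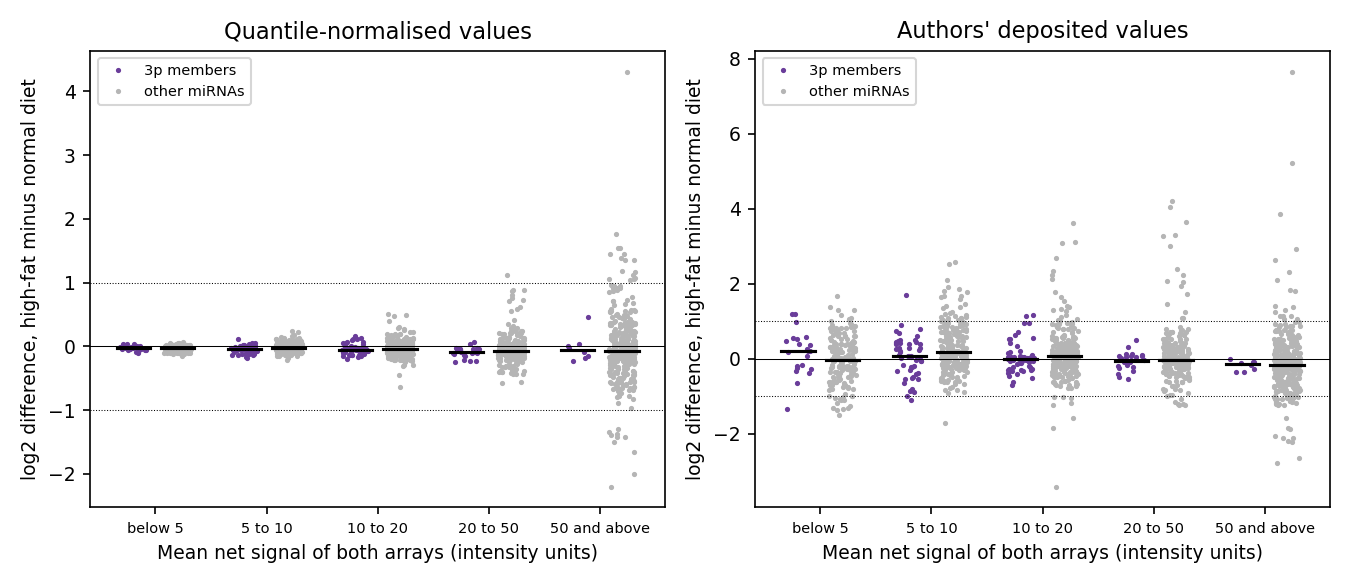
Log2 difference, high-fat minus normal diet (vertical axes), by mean net signal of both arrays (horizontal axes, intensity units), for 162 3p arms and 1168 other miRNAs, after quantile normalisation (left) and in the authors' deposited values (right). Each point is 1 miRNA, bars are medians and dotted lines mark 2-fold. Right, the 3p arms at 20 and above lie within 2-fold, while other miRNAs of that brightness spread well beyond.

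Of the brighter 3p arms most lay slightly lower on high-fat diet, as did most miRNAs of that brightness. A mean net signal of at least 15.9, the median over the 1330, was reached by 46, and 7 of them had a log2 difference above 0 (15.2%, against 38.9% of all 665 miRNAs of that brightness). Their median was -0.09, near the -0.06 of all 665. The gap was not tested, and the count above 0 turns on where the scaling sets 0. The lowest was miR-6909-3p, within the span of the lipid phosphatase gene Plpp2, with net signals of 35.3 on normal diet and 30.4 on high-fat diet and a log2 difference of -0.24. miR-7046-3p, within Rabac1, a gene of vesicle transport, was at 40.6 and 36.7 (-0.23). miR-6938-3p, within the mismatch repair gene Mlh3, was at 26.3 and 21.5 (-0.23). These 3 are the members whose normalised differences lay furthest below 0, and each was less than 2-fold apart in the authors' deposited values too.
miR-6909-3p: uGCCUUCCccggccucccacAG
miR-7046-3p: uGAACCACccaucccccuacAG
miR-6938-3p: uCAUCUGGggcugucuccuuAG
miR-7056-3p (-0.22), miR-6970-3p (-0.21), miR-6976-3p (-0.20), miR-7033-3p (-0.19) and miR-6917-3p (-0.15) came next. All 8 were also below 0 in the authors' deposited values, from -0.62 for miR-6976-3p, within the gene of the serum response factor Srf, to -0.26 for miR-6917-3p. With spike-control scaling all 8 were above 0, and so was the median over the 1330, at 0.35.

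On the higher side of the brighter 3p arms stood miR-7000-3p, with a log2 difference of 0.46, far from the next. Its size depended on the scaling: it was at 0.02 with 75th percentile scaling, 0.08 with the median used instead, 0.15 without scaling, 0.25 with cyclic loess, 0.31 with the local background, and 0.47 to 0.48 with spike-control scaling, the smaller offset and plain subtraction. The sign turned only in the authors' deposited values, at -0.10, from 2218 with normal and 2065 with high-fat diet. miR-6952-3p was at 13 and 22.6 in net signal (log2 difference 0.08), and miR-7066-3p, within the span of the proteoglycan gene Ncan, at 15 and 25.5 (0.07). miR-7063-3p (0.04), miR-7045-3p (0.03), miR-7028-3p (0.01) and miR-7062-3p (0.00149) made up the rest. In the authors' deposited values miR-7045-3p turned to -0.09, while miR-6952-3p was at 0.53, miR-7066-3p at 0.50 and miR-7063-3p at 0.30.

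The highest ratios belonged to dim probes, and the 7 past 2-fold in the authors' deposited values were named after their values had been seen. miR-7043-3p, from within Rassf4, was at 2.67 with normal diet and 10.5 with high-fat diet in net signal, with a deposited log2 difference of 1.71. miR-7027-3p, within the ubiquitin ligase gene Ube3b, was at 2.12 and 5.80 (1.19). miR-6946-3p, within Sec24c, a gene of vesicle coats, was at 2.17 and 5.92 (1.19). On the normal-diet array these 3 lay below the median of the No Probe spots. miR-6960-3p, within Troap, was at 7.30 and 19.5 (1.16), and miR-7094-3p, the one 3p arm with a sequence that lies in no protein-coding gene, was at 5.52 and 14.6 (1.15). On the lower side were miR-7060-3p at 4.48 and 2.10 (-1.35), and miR-6939-3p, within the kinase gene Akt1, at 9.84 and 5.46 (-1.11).
miR-7043-3p: aCUGUGCCucucuguuuucAG
miR-7027-3p: uCGGGUUUcucuccucuuccAG
miR-6946-3p: uUUCUUCUcuucccuuucAG
miR-6960-3p: aGCCAACCaccucucuccucAG
miR-7094-3p: uACUCUGCuguucucuccaca
miR-6939-3p: cCUCACUUgacccgcugcAG
Of these 7, only miR-7043-3p (1.23), miR-7060-3p (-1.95) and miR-6939-3p (-1.46) also passed 2-fold with plain subtraction and quantile scaling. There miR-7027-3p was at 0.66, miR-6946-3p at 0.67, miR-6960-3p at 0.84 and miR-7094-3p at 0.78. On the normalised scale, where the offset shrinks dim probes, the 7 ran from -0.18 for miR-6939-3p to 0.16 for miR-6960-3p. The latter was the second highest of the 162 there, followed by miR-6961-3p (8.20 and 18.9 in net signal, log2 difference 0.13).

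Of the 10 detected on 1 array only, 9 were detected on the high-fat array (90%), near the 84.9% over all 199 such miRNAs. The highest were miR-6972-3p, with net signals of 1.08 (normal diet) and 5.79 (high-fat diet), miR-6991-3p at 0.944 and 4.59, miR-7030-3p at 1.82 and 4.01, and miR-6929-3p at -0.698 and 3.11. Measured against the lowest detected value of the other array, miR-6972-3p was at least 1.04-fold higher on high-fat diet and miR-6991-3p at least 1.02-fold, on the normalised scale. The one detected on normal diet only was miR-7075-3p, at 2.20 and 1.36, at least 1.04-fold lower on high-fat diet. All 10 values above the limit lay below the 95th percentile of the No Probe spots. The 5p arm of the same hairpin was well above the limit for each of these 5, from 41.9 on normal diet for miR-6972-5p to 115.7 on high-fat diet for miR-7030-5p.

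The 5p arms of these hairpins lay somewhat more to the high-fat side than the 3p arms. In 145 hairpins with both arms detected on both arrays, the median log2 difference was -0.04 for the 3p and 0.00199 for the 5p arms, and 0.00755 and 0.13 in the authors' deposited values. The 5p arm had the higher difference in 94 of 145 hairpins, and in 86 of 145 in the authors' deposited values. Of these 145, 31 3p arms and 74 5p arms were above 0. Across hairpins the differences of the arms had a rank correlation of 0.21 and 0.22 on the 2 scales. Among the partners of the 10 brightest 3p arms, miR-7033-5p was 2-fold higher on high-fat diet (1.07) while miR-7033-3p was at -0.19, and miR-7045-5p was at 0.68 while miR-7045-3p was at 0.03. miR-6917-5p lay further below 0 than its 3p arm, at -0.43 against -0.15. Arms of a hairpin come from 1 transcript and were measured by probes of different base content.

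Host genes with more than 1 of the 3p arms on the same strand numbered 3, and they were singled out after their values had been seen. Srebf1, which encodes the sterol-regulated transcription factor of fatty acid synthesis, spans miR-6921-3p and miR-6922-3p on the minus strand of chromosome 11, at chr11:60200538-60200558 and chr11:60202262-60202284.
miR-6921-3p: uGACUACUccuugccucucAG
miR-6922-3p: uGUUCUGCucacccuucucacAG
miR-6921-3p was at 7.59 with normal and 17.6 with high-fat diet, with a log2 difference of 0.12, or 0.96 in the authors' deposited values. miR-6922-3p was at 5.80 and 11.2, with 0.04, or 0.69 in the deposited values. Both were the brighter on the high-fat array before scaling. So were 75.9% of the 3p arms and 70.6% of all miRNAs detected on both arrays. With 75th percentile scaling miR-6922-3p was at -0.03. On normal diet its net signal lay below 7.33, the 95th percentile of the No Probe spots. The 5p arms of this pair were brighter, with miR-6921-5p at 39.5 and 85.6 and miR-6922-5p at 58.3 and 73. Expression of Srebf1 was not measured on these arrays. In Ankrd52, miR-6914-3p was at 13.5 and 15.3 and miR-6915-3p at 11.7 and 12.1. In Cmip, miR-7077-3p was at 3.23 and 2.98, while miR-7078-3p was not detected on either array. The pair in Cmip thus differed in detection state at the limit used here. On both arrays, though, miR-7077-3p lay below the median of the No Probe spots, at 3.70 and 3.52.

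Seeds were nearly all different. The 177 sequences held 169 seeds, of which 7 were shared by 15 members, at most 3 to a seed. The largest group had the seed CACCCUG.
miR-7023-3p: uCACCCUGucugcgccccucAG
miR-7068-3p: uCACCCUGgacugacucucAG
miR-7018-3p: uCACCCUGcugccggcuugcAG
miR-7023-3p, within the span of the lipid kinase gene Pik3cd, had net signals of 18.4 and 23.9. miR-7068-3p was at 1.31 and 2.42, detected on high-fat diet only, and miR-7018-3p, at -1.55 and 0.356, on neither. In this group a shared seed did not go with a like signal. In the other groups miR-6927-3p (30.5 and 34.3) shared its seed with miR-6945-3p (3.45 and 3.30), miR-7063-3p (21.9 and 32.3) with miR-6973b-3p (6.61 and 10.4), miR-7039-3p (16.9 and 16.1) with miR-6932-3p (3.66 and 5.06), and miR-7048-3p (13.8 and 15.7) with miR-7077-3p. miR-7015-3p (7.68 and 5.83) shared its seed with miR-6992-3p, one of the dimmest members. A letter suffix was no sign of a shared seed among the 3p arms: miR-7036a-3p (13.7 and 15.1) and miR-7036b-3p (29.9 and 29.9) differ there.
miR-7036a-3p: cCGUCCUCauccgcuccucccAG
miR-7036b-3p: uUCCUGGUgggccucggggucc

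Well-described mirtrons outside this range were measured on the same arrays. The net signal of miR-877-3p, from an intron of Abcf1, was 6.57 with normal and 13.2 with high-fat diet, and that of miR-1224-3p, from an intron of Vwa5b2, 11.9 and 14.8. The quartiles of the 3p arms described here hold both of these mirtrons on both arrays. The nearest 3p numbers outside the range, miR-6769b-3p and miR-7115-3p, were at 11.9 and 13.4, and at 19.5 and 29.2. Their 5p arms were at 11.2 and 17.3 for miR-877-5p and at 127.6 and 214.4 for miR-1224-5p.

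Summed net signals of miRNAs taken as marks of several cell types differed between the arrays, before any scaling. They are set beside the differences above, and a sum can rest on 1 bright miRNA. Over all singly named miRNAs the sums were 296114 on normal diet and 287939 on high-fat diet. All 5 miRNAs taken as marks of adipose tissue (miR-378a-3p, miR-103-3p, miR-193b-3p, miR-143-3p and miR-30a-5p) were detected on both arrays, and their summed net signal was 5705 on normal diet and 2800 on high-fat diet. The red cell miRNAs miR-451a and miR-144-3p summed to 5505 and 1047, and 3 leukocyte miRNAs to 645.3 and 309.1. The sum of miR-34b-5p, miR-34c-5p and miR-449a-5p, which mark ciliated epithelium and testis, was 5.96 and 2430, with 1 of 3 detected on normal diet, and that of 3 epithelial miRNAs 33.6 and 297.9. A change in the number of cells of a type and a change in RNA per cell cannot be told apart in such tissue, and the part of cell make-up in the differences of the 3p arms was not tested.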

How the data were processed

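Total RNA was labelled with Cy5 and hybridised to a 3D-Gene miRNA array in 1 colour, per the labels' protocols. Per the file headers, the deposited scanner intensity is the median of each spot at 635 nm, merged from 3 gains. The sources used here do not give the scanner software. The authors' deposited table of processed intensity equals spot intensity minus a background, times 1.86 (normal diet) or 1.56 (high-fat diet). No value strayed from that line by more than 3.1e-06, the background equalled the trimmed blank mean, and both medians were 25. It is linear, uncentred and lists a miRNA exactly where it was detected here, for all 1900 probes.

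Blank spots were trimmed by 5% at each end. Values were corrected with limma 3.58.1 (R 4.3.3; normexp, trimmed blank mean as background, offset 50), quantile-normalised over all 1900 probes and expressed as log2 values, which are not the authors' deposited intensities. Probes named for several miRNAs (12) were left out. Each miRNA has 1 spot, and the number of arrays limits precision. The steps were run on simulated data made from the normal-diet signals, with no scaling difference between the arrays. That run checked only the order of the median differences of raised, unchanged and lowered miRNAs. It does not bear on the choice of scaling. Differences are called at 2-fold, with no test. Alternatives were other detection limits, backgrounds, scalings, offsets and filters, and the authors' deposited values.

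The blank background, the members and the lists were chosen with earlier results of these data known. Named members were the 10 brightest, the largest differences among the brighter ones (8 lower, 7 higher), the 3 lowest and 3 highest of all, the top 4 detected on 1 array only, those sharing seeds, 5p partners and the nearest numbers outside the range. Further names were added after values were seen. Sequences and gene spans are RefSeq's (GRCm38.p6), and strand comes from its promoter table.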

Additional observations from a re-analysis of the deposited data

How the results depend on the processing

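No paired analysis was possible because each diet has 1 array and the labels give no replicate numbers. For the same reason no array could be left out, and depth is limited by signal over the blanks. Detection with a limit at 3 SD, without trimming or at a high percentile of the blanks stayed within 1.5 times of each count. With limits chosen after seeing the data, the number detected on normal diet, on both arrays and on neither moved to 107, 102 and 69 above the 95th percentile of the No Probe spots, and to 87, 84 and 84 above that of the negative controls. The median log2 difference was -0.25 with plain subtraction, which put 1 member past 2-fold upward and 8 downward (background 4.59% and 7.97%), and 0.34 with spike-control scaling, where the median of all miRNAs was 0.35. The authors' deposited values gave 5 higher and 2 lower. The number above 0 was 62 with the local background, 14 with 75th percentile scaling, 63 with cyclic loess, 110 without scaling, 162 with spike-control scaling, 85 in the authors' deposited values, 55 of 201 with no filter, 7 of the 46 of median signal or brighter, and 16 of the 102 above the No Probe spots. These counts turn on where 0 is set, since most differences lie close to it. The 3p arm was the brighter in 15.8% of hairpins on high-fat diet where both arms passed 3 SD. Of 21 named members detected on both arrays, 3 kept their sign under every alternative tried. Of 249 values, 32 had the other sign, 12 of them under spike-control scaling and 7 where the local background was used. Some of the 249 could not turn. The filters reuse the same difference, and the smaller offset and plain subtraction keep the ranks that set the sign under quantile normalisation. The share of 32 in 249 thus understates how often signs turned where they could.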
